A study of Homo sapiens with 24 samples.

Results

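PRUNE2, IER2 and CCM2L were followed through 24 RNA sequencing libraries of HGC27 cells, an established human gastric carcinoma line. Each gene was read through a gene entry that lies on the opposite DNA strand, namely PCA3 for PRUNE2, ENSG00000267598 for IER2 and ENSG00000226239 for CCM2L. These 3 entries, of 61578 in each count file and 12822 tested, were selected on measured values, namely counts that moved in one direction in LPDS medium in all 4 lines, and as genes outside lipid metabolism. The LPDS responses are therefore given as a description without a test. The tests of the members below concern differences between lines. Comparisons of lines within a medium did not enter the choice. Differences in LPDS response between lines are built from the LPDS changes that the choice used, so they are not independent of it.

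All 8 groups held 3 libraries from HGC27 cells grown for 3 days in high-glucose DMEM. The lines were parental cells, SGCTRL (labelled as a guide control and wild type), SG12 and SG21 (both labelled as TMEM97 knockouts), and each was grown with FBS or with LPDS. These abbreviations, which are not expanded in the labels, commonly mean fetal bovine serum and serum depleted of lipoproteins. TMEM97, also called the sigma-2 receptor, resides in intracellular membranes and takes part in cholesterol trafficking. The design sets the LPDS response of edited cells beside that of wild-type cells. The labels do not say whether SGCTRL, SG12 and SG21 are each a single clone, so a difference between lines cannot be told apart from a difference between clones. What was kept separate between replicates is not described either, and p-values hold for the spread of these libraries alone.

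Between 2399212 and 5543678 reads were counted on genes per library, out of 44077624 to 101673235 uniquely aligned reads. On no gene fell 94.3% to 94.6% of the uniquely aligned reads, and the library kit keeps strand. At all 3 loci the opposite-strand entry held far more reads than the entry with the gene's own name. The share of ambiguous reads was 2.10% to 2.24% in 8 libraries, namely all 6 of SGCTRL plus replicates 2 and 3 of SG21 in LPDS, while 16 libraries had 2.58% to 3.15%. This split largely coincides with the SGCTRL line. In FBS the entry over TMEM97 on the other strand, IFT20, held 49.7 to 57.5 CPM in SG12 and 72.9 to 78.8 CPM in SG21, against 88.5 to 139.9 CPM in the 6 wild-type libraries. In LPDS it held 179.6 to 213 CPM in SG12 and 121 to 128 CPM in SG21, against 142 to 173 CPM in the wild-type libraries. This RNA level was thus not lower in both knockout lines throughout, and it does not check the labels of edited cells.

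The 3 genes belong to different systems. IER2 (immediate early response 2) encodes a nuclear protein whose gene is switched on within minutes by serum and growth factors, without new protein synthesis. CCM2L is the paralogue of CCM2, a scaffold of the cerebral cavernous malformation complex that binds KRIT1 and restrains MEKK3 signalling, and it is known mostly from endothelial cells. PRUNE2 encodes a large protein with a BCH domain, a lipid- and protein-binding fold shared with BNIP2. PCA3, the noncoding gene on the other strand of PRUNE2, is known as a prostate cancer marker. In an unstranded or reversed count, PRUNE2 RNA can fall on it only within PCA3 exons, most of whose bases lie in PRUNE2 introns.

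The entries cover different parts of their genes (hg38, GENCODE 29). PRUNE2 lies on chromosome 9 at chr9:76611376-76906087, minus strand, and PCA3 at chr9:76691980-76863307, plus strand. Of the 14174 exon bases of PCA3, 1060 (7.48%) overlap PRUNE2 exons, 1001 of them coding, and 13114 lie in PRUNE2 introns. The PRUNE2 reading therefore mixes exon and intron, and reads of PCA3 itself cannot be told apart from those of unspliced PRUNE2 RNA where the counting strand is unknown. IER2 lies at chr19:13150415-13154908, plus strand, and all 946 exon bases of its entry at chr19:13153071-13154193 fall within IER2 exons, 492 of them coding. CCM2L lies at chr20:32010450-32032180, plus strand. Its entry at chr20:32027753-32031575 has 2013 exon bases, of which 705 (35.0%) overlap CCM2L exons, 441 of them coding, and 1308 lie in introns. Since these stretches differ, levels were not compared between genes.

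**Figure D1:**
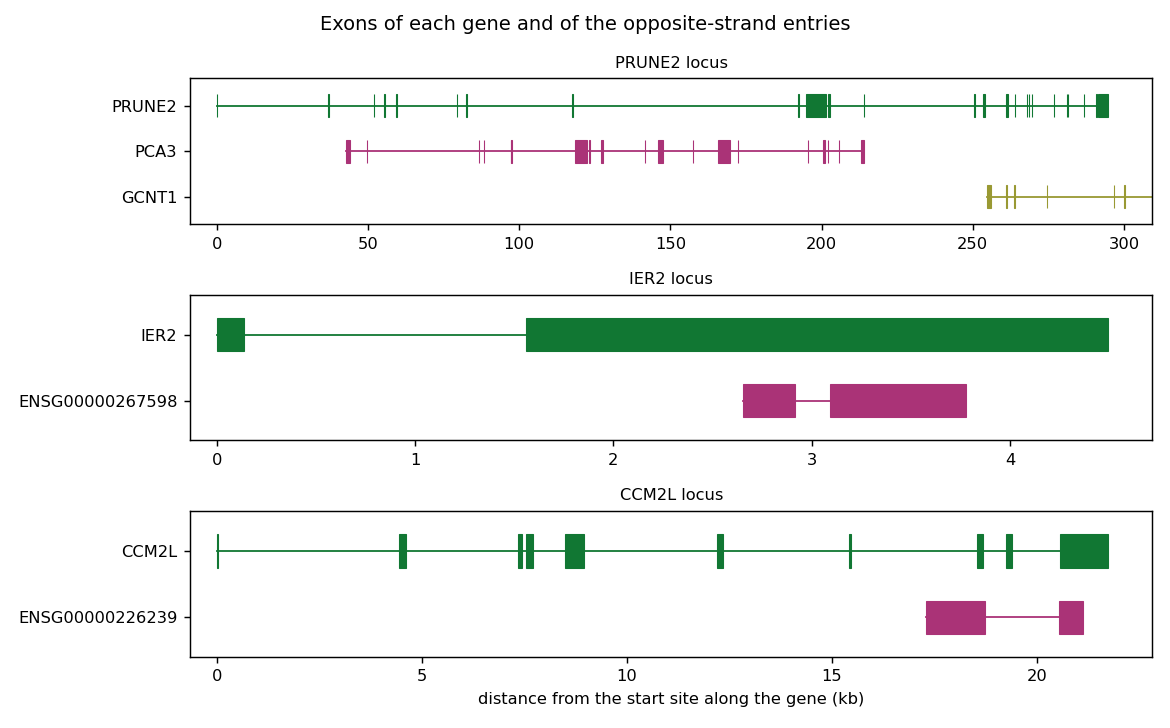
Exons (boxes) of PRUNE2, IER2 and CCM2L and of the opposite-strand entries that hold their reads, drawn by distance in kb from each gene's start site. The ENSG00000267598 boxes fall wholly inside an IER2 exon, whereas most PCA3 boxes fall between PRUNE2 exons, and GCNT1 runs past the end of PRUNE2.

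The next lines print, for each gene, a stretch of coding sequence that the counted entry overlaps on the other strand, to show where the entry meets the protein-coding gene. Counts are per entry, so how many reads came from these stretches was not measured. They are written 5′ to 3′ on the strand of the gene, from the GENCODE 29 transcripts, and the capitals mark the IER2 start codon. The PRUNE2 stretch is at chr9:76710533-76710661, the IER2 stretch at chr19:13153187-13153329 and the CCM2L stretch at chr20:32028995-32029124.
PRUNE2: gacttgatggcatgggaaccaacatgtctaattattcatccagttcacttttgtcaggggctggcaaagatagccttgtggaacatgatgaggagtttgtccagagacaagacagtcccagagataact
IER2: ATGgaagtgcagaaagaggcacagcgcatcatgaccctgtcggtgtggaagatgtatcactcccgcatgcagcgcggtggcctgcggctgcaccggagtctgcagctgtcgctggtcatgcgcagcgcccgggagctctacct
CCM2L: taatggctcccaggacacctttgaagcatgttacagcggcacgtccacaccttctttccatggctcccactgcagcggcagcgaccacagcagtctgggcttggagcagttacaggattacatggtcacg

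The bases upstream of the genes' starts were searched for 5 motifs on both strands. These were SRE-1 (bound by the sterol factor SREBP), the E-box CACGTG, the core TGACG of the cAMP response element, the core ACGTG of the hypoxia response element, and the CArG box bound by SRF. RefSeq (GRCh38.p14) gave windows for 2 starts of PRUNE2 and 1 of IER2, and 250 bases before each start were used. No window for CCM2L was available, so this gene was not searched. The first PRUNE2 window is chr9:76906115-76906364 and the second, before a start inside the gene, in an exon block that PCA3 overlaps, is chr9:76692198-76692447, both minus strand. Capitals mark the motif matches.
PRUNE2 outer start: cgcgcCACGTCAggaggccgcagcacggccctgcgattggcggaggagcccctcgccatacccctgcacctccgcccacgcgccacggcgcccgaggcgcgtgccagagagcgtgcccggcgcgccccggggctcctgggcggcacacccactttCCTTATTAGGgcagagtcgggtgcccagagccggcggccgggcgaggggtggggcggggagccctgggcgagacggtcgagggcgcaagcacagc
PRUNE2 inner start: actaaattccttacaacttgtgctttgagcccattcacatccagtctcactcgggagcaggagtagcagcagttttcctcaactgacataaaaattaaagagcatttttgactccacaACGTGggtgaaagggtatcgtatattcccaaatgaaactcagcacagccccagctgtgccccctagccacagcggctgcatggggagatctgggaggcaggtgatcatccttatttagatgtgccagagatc

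The outer PRUNE2 window held 1 CArG box, at positions −95 to −86 from the start, and 1 TGACG core on the other strand that overlaps 1 ACGTG core. The inner window held 1 ACGTG core. The IER2 window (chr19:13150161-13150410), which overlaps the first exon of STX10 and is not printed, held 1 TGACG core and 1 ACGTG core and no CArG box. None of the 3 windows held SRE-1 or the E-box. Among 35116 windows of the same length, the CArG box was found in 1.16%, TGACG in 21.2%, ACGTG in 18.5%, the E-box in 6.34% and SRE-1 in 0.0342%.

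The LPDS levels are given first, in CPM, that is counts per 1000000 reads on the 12822 tested entries after TMM scaling of the library sizes. These are bulk samples, in which fewer cells of a type and less RNA per cell cannot be told apart. PRUNE2 was at 98.3, 91.4 and 95.0 CPM in the parental FBS libraries and at 306, 312 and 304 CPM in LPDS. In SGCTRL it was at 99.4, 115 and 108 CPM in FBS and at 320.0, 293 and 291 CPM in LPDS. The SG12 values were 104, 123 and 97.3 CPM in FBS and 352, 453 and 380.4 CPM in LPDS, the highest of any group. In every line the 3 LPDS libraries lay above the 3 FBS libraries, with no overlap. The SG21 values were 102, 91.4 and 100.0 CPM in FBS and 321, 283 and 332 CPM in LPDS. As log2 fold changes, LPDS against FBS was 1.69 (SE 0.11) for the parental line, 1.49 (SE 0.11) for SGCTRL, 1.87 (SE 0.11) for SG12 and 1.67 (SE 0.11) for SG21, or 2.80 to 3.65 times. Ranked among all 12822 fold changes of the same line, this rise stood at place 120, 185, 324 and 124 from the top in the lines as just listed.

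IER2 was at 994, 1549 and 1125 CPM in the parental FBS libraries and at 2272, 1956 and 2142 CPM in LPDS. In SGCTRL it was at 1598, 1423 and 1854 CPM in FBS and at 3127, 3486 and 2959 CPM in LPDS. SGCTRL thus had the highest mean in both media. The SG12 values were 676, 647 and 793 CPM in FBS, the lowest of any group, and 2311, 2588 and 2893 CPM in LPDS. In SG21 it was at 945, 1146 and 1043 CPM in FBS and at 1759.6, 2125 and 2199 CPM in LPDS. Here too no LPDS library overlapped an FBS library of its line. The log2 fold change was 0.80 (SE 0.14) for the parental line, 0.97 (SE 0.14) for SGCTRL, 1.88 (SE 0.14) for SG12 and 0.96 (SE 0.14) for SG21, that is 1.74, 1.96, 3.68 and 1.94 times.

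CCM2L went the other way. It was at 47.3, 48.9 and 45.0 CPM in the parental FBS libraries and at 27.2, 32.1 and 26.9 CPM in LPDS. In SGCTRL it was at 97.0, 109 and 95.8 CPM in FBS and at 65.5, 48.3 and 59.6 CPM in LPDS. SG21 resembled it in size, with 88.1, 97.9 and 82.2 CPM in FBS and 46.0, 59.0 and 59.1 CPM in LPDS. The SG12 values were 37.2, 40.7 and 27.9 CPM in FBS and 22.0, 22.0 and 25.4 CPM in LPDS, the lowest of all groups in each medium. The LPDS libraries lay below the FBS libraries in each line, by the narrowest gap in SG12. The log2 fold change was −0.71 (SE 0.17) for the parental line, −0.80 (SE 0.15) for SGCTRL, −0.61 (SE 0.18) for SG12 and −0.71 (SE 0.16) for SG21. With the share of reads on the genes' own names as a covariate, the SG12 value was 0.07 (SE 0.41). That share was 8.26% to 8.46% in SG12 FBS libraries and 7.72% to 7.78% in SG12 LPDS libraries, so it moves with the medium in this line, and its part in the result was not tested.

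As background, LPDS libraries lay wholly above FBS libraries for 10.8% of tested entries for the parental line, 11.3% for SGCTRL, 19% for SG12 and 10.4% for SG21. They lay wholly below for 11.1%, 11.2%, 18.2% and 10.2%. Nothing is read from the members' own separation, which the choice used. How many entries are separated between lines was not counted, so nothing is read from such separations given below either. An adjusted p under 0.05 in all 4 lines was reached by 36 entries that rose (0.281%) and 13 that fell (0.101%).

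**Figure D2:**
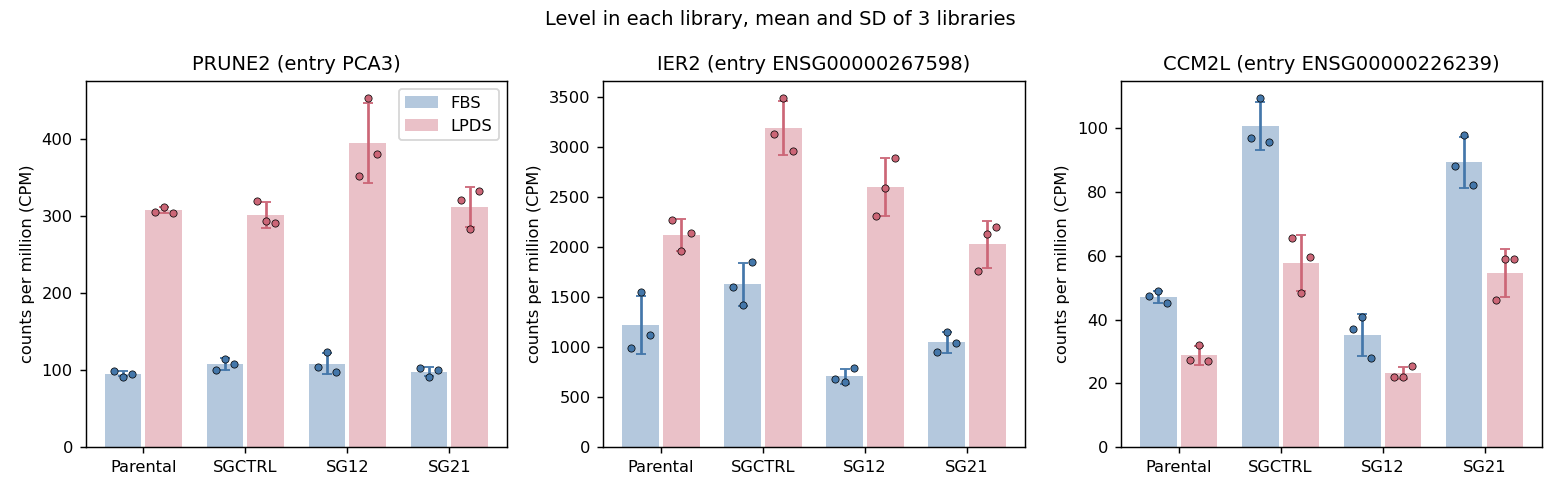
Level of each gene, read through its opposite-strand entry, in CPM on a linear axis from 0. Points are libraries, bars the mean and error bars the SD of 3 libraries, blue for FBS and red for LPDS; PRUNE2 and IER2 are higher in LPDS and CCM2L lower in all 4 lines, and SG12 LPDS replicate 2 has the highest PRUNE2 value, 453 CPM.

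Other entries at the same loci are given beside the members. The GCNT1 entry, named for a glycosyltransferase on the plus strand that runs into the end of PRUNE2, has 1705 of 9251 exon bases (18.4%) inside PRUNE2, 262 of them in PRUNE2 exons. Its mean was 17.0 ± 4.11 CPM (SD, n = 3) in parental FBS and 58.3 ± 2.94 CPM in LPDS, 19.9 ± 5.21 and 61.0 ± 1.96 CPM in SGCTRL. In SG12 it was 19.3 ± 2.00 and 81.9 ± 11.0 CPM, and in SG21 17.4 ± 2.80 and 54.6 ± 2.67 CPM. The log2 fold changes, 1.77 (SE 0.19), 1.61 (SE 0.19), 2.08 (SE 0.19) and 1.66 (SE 0.19), lay close to those of the PCA3 entry, with the highest in SG12 for both. RNA of GCNT1 itself and RNA of PRUNE2 cannot be told apart in this entry. The entry with the name PRUNE2 held 90 reads over all 24 libraries and was not tested. RFK, FOXB2, and the 2 small RNA entries inside the locus were at or below a mean of 1.63 CPM.

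The entry with the name IER2 had a mean of 51.2 CPM over all libraries, against 1817 CPM for the opposite-strand entry. It was at 32.4, 58.9 and 33.7 CPM in parental FBS and 53.6, 62.9 and 54.0 CPM in LPDS, where the media overlapped. In SG12 it was at 16.5, 16.1 and 14.8 CPM in FBS and at 63.6, 68.0 and 75.5 CPM in LPDS, so SG12 in FBS was again the lowest group. The log2 fold change in LPDS was 0.44 (SE 0.18), 1.04 (SE 0.17), 2.12 (SE 0.20) and 0.98 (SE 0.17) in parental cells, SGCTRL, SG12 and SG21. Both neighbours, STX10 and CACNA1A, were low, with means of 3.12 and 8.35 CPM.

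The entry with the name CCM2L held few reads, 0 to 40 per library. It was at 12.3, 11.7 and 9.95 CPM in SGCTRL FBS and at 10.2, 9.99 and 6.96 CPM in SG21 FBS. In the other FBS groups it was lower, at 1.97, 1.47 and 2.03 CPM in parental cells and 2.41, 1.29 and 1.23 CPM in SG12. In LPDS all 12 libraries lay between 0 and 3.12 CPM. The order of lines in FBS was the same as for the opposite-strand entry in that SGCTRL and SG21 were the higher pair. XKR7, a neighbouring gene, was at a mean of 1.09 CPM.

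**Figure D3:**
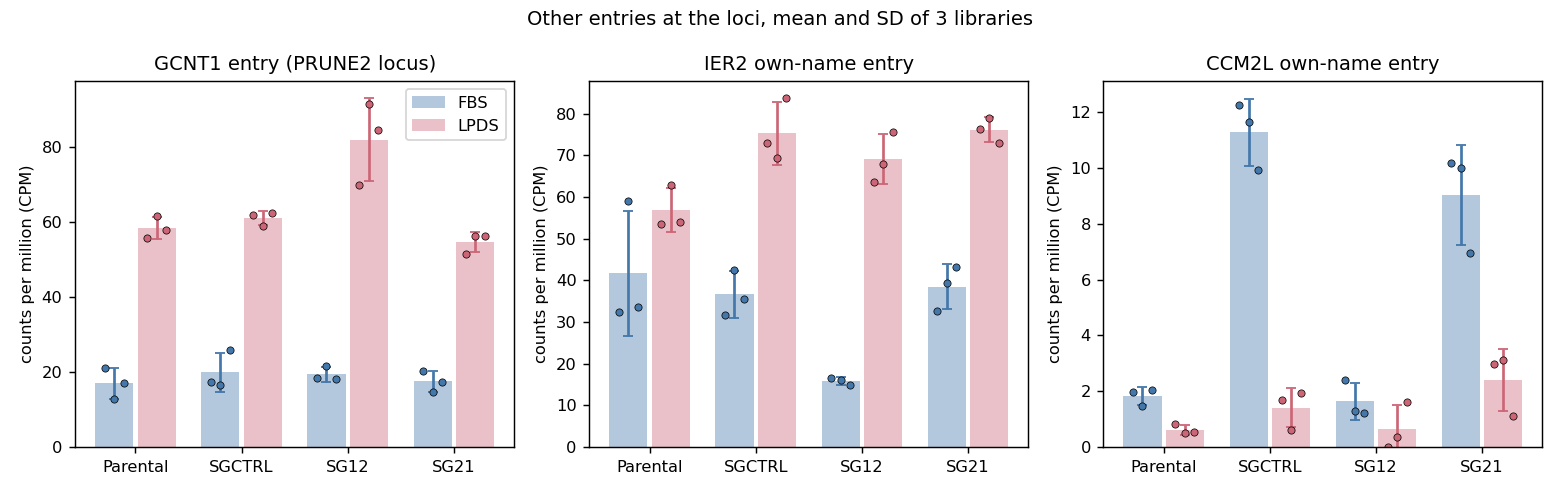
Level in CPM, on a linear axis from 0, of the GCNT1 entry at the PRUNE2 locus and of the entries that carry the names IER2 and CCM2L. Points are libraries, bars the mean and error bars the SD of 3 libraries; GCNT1 is higher in LPDS in each line, and the CCM2L entry is above 6 CPM only in the FBS libraries of SGCTRL and SG21.

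The lines were then compared within a medium, and the responses between lines, by edgeR's quasi-likelihood test with Benjamini-Hochberg adjustment over all 12822 entries. In FBS, the members that passed were 2 of 3 for SGCTRL against parental cells (18.3% of all entries passed), 2 for SG12 against SGCTRL (25.2%) and 1 for SG21 against SGCTRL (14%). They were 1 for SG12 against parental cells (26.5%), 1 for SG21 against parental cells (24.2%) and 2 for SG12 against SG21 (27.4%). In LPDS, 2 of 3 passed for SGCTRL against parental cells (0.811%), 2 for SG12 against SGCTRL (11.1%) and 1 for SG21 against SGCTRL (10.9%). There, 1 passed for SG12 against parental cells (9.51%), 1 for SG21 against parental cells (11.3%) and 2 for SG12 against SG21 (18.6%). The response differed for 1 of 3 members between SG12 and SGCTRL (10.7%), 1 between SG12 and parental cells (8.6%) and 1 between SG12 and SG21 (13.1%). In the remaining response differences, SGCTRL against parental cells (0.0702%), SG21 against SGCTRL (0.0468%) and SG21 against parental cells (0.686%), edgeR called 0 members, DESeq2 called 0, and 0 had an unadjusted p under 0.05.

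For PRUNE2 no line comparison passed in FBS. Its FBS means ran from 94.9 ± 3.42 CPM in parental cells over 97.9 ± 5.77 CPM in SG21 and 107 ± 7.72 CPM in SGCTRL to 108 ± 13.4 CPM in SG12 (SD, n = 3), and neighbours in this order overlapped. By edgeR 0 of 6 line comparisons in FBS passed, 0 had an unadjusted p under 0.05, and DESeq2 called 0. Without SG12 FBS replicate 3, the lowest of its group, SG12 exceeded SG21 by 0.32 (edgeR adjusted p 0.0458). In LPDS the order was SGCTRL (301 ± 16.3 CPM), parental (307 ± 4.03 CPM), SG21 (312 ± 26.1 CPM) and SG12 (395 ± 51.9 CPM), and all SG12 libraries stood above all others. SG12 exceeded SGCTRL in LPDS by 0.39 on the log2 scale (SE 0.11, edgeR adjusted p 0.00937). Without SG12 LPDS replicate 2, the highest library, the difference was 0.30 (adjusted p 0.116), and without SGCTRL LPDS replicate 2 it was 0.37 (adjusted p 0.0604). It was 0.33 (adjusted p 0.489) with a term for the split in ambiguous reads. Against parental cells SG12 was higher by 0.36 (SE 0.11, edgeR adjusted p 0.0219), and against SG21 by 0.34 (SE 0.11, edgeR adjusted p 0.018). These calls were lost as well without SG12 LPDS replicate 2, at adjusted p 0.286 and 0.179. With the own-name share as a covariate they were lost at 0.33 (adjusted p 0.105) and 0.30 (adjusted p 0.0779), and the difference from SG21 also with the split term, at 0.30 (adjusted p 0.233). The difference from parental cells was also lost without SG12 LPDS replicate 3 or any parental LPDS replicate (adjusted p 0.0514 to 0.112), and that from SG21 without SG21 LPDS replicate 2 (0.130). The rise in LPDS was larger in SG12 than in SGCTRL by 0.38 (SE 0.16), which did not pass (edgeR adjusted p 0.107), and none of the 6 response differences passed by edgeR or DESeq2, with 1 at an unadjusted p under 0.05.

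For IER2 5 of 6 line comparisons passed in FBS and 2 of 6 in LPDS. The FBS order was SG12 (705 ± 77.4 CPM), SG21 (1045 ± 101 CPM), parental (1223 ± 290.0 CPM) and SGCTRL (1625 ± 216 CPM), where SG21 overlapped parental cells and parental cells overlapped SGCTRL. SG12 was lower than SGCTRL by 1.20 in FBS, a log2 difference of −1.20 (SE 0.14, edgeR adjusted p 4.48e-07), and the entry with the name IER2 gave −1.21 (SE 0.20, edgeR adjusted p 5.49e-06). It was also lower than parental cells, at −0.79 (SE 0.14, edgeR adjusted p 0.000119), and than SG21, at −0.57 (SE 0.14, edgeR adjusted p 0.00305), a call lost with the own-name share as a covariate (−0.44, adjusted p 0.668). SG21 was lower than SGCTRL in FBS, at −0.64 (SE 0.14, edgeR adjusted p 0.00216), but the own-name entry did not show this, at 0.07 (SE 0.18, edgeR adjusted p 0.856). With a term for the ambiguous-read split the difference was −0.34 (adjusted p 0.662). SGCTRL exceeded parental cells by 0.41 in FBS (SE 0.14, edgeR adjusted p 0.0384), a call lost in most alternatives, with adjusted p from 0.00018 to 0.862. It was lost when parental FBS replicate 1 or 3, or SGCTRL FBS replicate 1 or 3, was left out, at differences of 0.24 to 0.38. The own-name entry was at −0.19 (SE 0.18, edgeR adjusted p 0.496) for the same comparison. SG21 differed from parental cells by −0.23 (SE 0.14, edgeR adjusted p 0.243), and by −0.40 (adjusted p 0.0178) without parental FBS replicate 1. At an FBS level so different between lines, a fold change in LPDS starts from different points.

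In LPDS the IER2 order was SG21 (2028 ± 235 CPM), parental (2123 ± 159 CPM), SG12 (2597 ± 291 CPM) and SGCTRL (3190.5 ± 269 CPM). SG21 and parental cells overlapped, whereas every SGCTRL library stood above all others. SG21 stayed below SGCTRL, at −0.65 (SE 0.14, edgeR adjusted p 0.00202), whereas the own-name entry gave 0.01 (SE 0.17, edgeR adjusted p 0.977). Within the libraries of low ambiguous share, SG21 replicates 2 and 3 held 2125 and 2199 CPM against 2959 to 3486 CPM in SGCTRL. SG12 differed from SGCTRL by −0.30 (SE 0.14), which did not pass (edgeR adjusted p 0.179), and it passed with no count filter (−0.30, adjusted p 0.0444) and with the spread from the compared groups alone (−0.31, adjusted p 0.00307). With the term for the ambiguous-read split the difference was 0.00036 (SE 0.24). SG12 differed from SG21 by 0.36 (SE 0.14, edgeR adjusted p 0.0714) and from parental cells by 0.29 (SE 0.14, edgeR adjusted p 0.193). Neither passed. The difference from parental cells passed with no count filter (0.32, adjusted p 0.025) and with the compared groups alone (0.28, adjusted p 0.00749). SGCTRL exceeded parental cells by 0.59 (SE 0.14, edgeR adjusted p 0.036). That call was lost when any of the 6 libraries was left out, at 0.49 to 0.64 with adjusted p 0.0756 to 0.203. It was lost too with the split term (0.29, adjusted p 0.769), with DESeq2 size factors (adjusted p 0.0637), with the stricter count filter (0.0721), with all uniquely aligned reads as library size (0.103) and with the own-name share as a covariate (0.0509).

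The IER2 response was larger in SG12 than in the other lines. The difference in log2 fold change was 0.91 from SGCTRL (SE 0.19, edgeR adjusted p 0.00292), 1.09 from parental cells (SE 0.19, edgeR adjusted p 0.000579) and 0.92 from SG21 (SE 0.19, edgeR adjusted p 0.0021). The entry with the name IER2 gave 1.08 (SE 0.26, edgeR adjusted p 0.0039), 1.68 (SE 0.26, edgeR adjusted p 7.27e-06) and 1.14 (SE 0.26, edgeR adjusted p 0.00188). All 3 differences of the opposite-strand entry passed with every library left out in turn and with the term for the ambiguous-read split. With the own-name share as a covariate they were 0.80 (adjusted p 0.316), 0.99 (adjusted p 0.114) and 0.77 (adjusted p 0.732). That share separates SG12 FBS libraries from all others, so the covariate and the group can hardly be told apart. The response of SG21 differed from that of SGCTRL by −0.02 (SE 0.19, edgeR adjusted p 0.99).

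For CCM2L 4 of 6 line comparisons passed in each medium, and the order of the line means was the same. In FBS the order was SG12 (35.3 ± 6.58 CPM), parental (47.1 ± 1.95 CPM), SG21 (89.4 ± 7.94 CPM) and SGCTRL (101 ± 7.55 CPM), and in LPDS SG12 (23.1 ± 1.95 CPM), parental (28.7 ± 2.91 CPM), SG21 (54.7 ± 7.54 CPM) and SGCTRL (57.8 ± 8.72 CPM). In both media SG21 overlapped SGCTRL, and SG12 and parental cells lay wholly below both. SG12 was lower than SGCTRL at −1.51 in FBS (SE 0.16, edgeR adjusted p 1.89e-10) and −1.32 in LPDS (SE 0.17, edgeR adjusted p 8.79e-08). It was lower than the other knockout line, SG21, at −1.33 in FBS (SE 0.16, edgeR adjusted p 3.59e-09) and −1.24 in LPDS (SE 0.17, edgeR adjusted p 1.62e-07). SG21 differed from SGCTRL by −0.17 in FBS (SE 0.15, edgeR adjusted p 0.521) and by −0.08 in LPDS (SE 0.16, edgeR adjusted p 0.838). The 2 lines labelled as knockouts were thus at different CCM2L levels.

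The wild-type lines differed too. SGCTRL exceeded parental cells in CCM2L by 1.09 in FBS (SE 0.16, edgeR adjusted p 2.31e-06) and 1.00 in LPDS (SE 0.16, edgeR adjusted p 0.000376). SG21 exceeded parental cells by 0.92 in FBS (SE 0.16, edgeR adjusted p 1.59e-05) and 0.93 in LPDS (SE 0.17, edgeR adjusted p 6.24e-05). SG12 differed from parental cells by −0.41 in FBS (SE 0.17, edgeR adjusted p 0.0598) and −0.32 in LPDS (SE 0.18, edgeR adjusted p 0.278). The FBS difference passed at −0.47 with all uniquely aligned reads as library size, at −0.41 with the split term and at −0.82 with the own-name share as a covariate (adjusted p 0.0332, 0.0498 and 0.0312). With the split term, SGCTRL against parental cells was 0.73 in FBS (adjusted p 0.174) and 0.64 in LPDS (adjusted p 0.483), and SG12 against SGCTRL was −1.14 in FBS (adjusted p 0.00601) and −0.96 in LPDS (adjusted p 0.076). SG21 against parental cells in LPDS was 0.67 (adjusted p 0.0672) with that term. Every SGCTRL library is on one side of the split and every parental and SG12 library on the other, so line and split cannot be told apart here except through SG21 in LPDS. SG21 LPDS replicate 1, on the side of the parental cells, held 46.0 CPM, against 59.0 and 59.1 CPM in replicates 2 and 3. The entry with the name CCM2L also separated SGCTRL from parental cells (2.61, SE 0.52, edgeR adjusted p 0.00035) and SG12 from SGCTRL (−2.74, SE 0.54, edgeR adjusted p 8.17e-05) in FBS. In LPDS, where it held 0 to 11 reads per library, neither passed, at 1.25 (SE 0.72, edgeR adjusted p 0.523) and −1.12 (SE 0.72, edgeR adjusted p 0.364). By edgeR and by DESeq2 0 of 6 response differences of CCM2L passed, and 0 had an unadjusted p under 0.05.

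**Figure D4:**
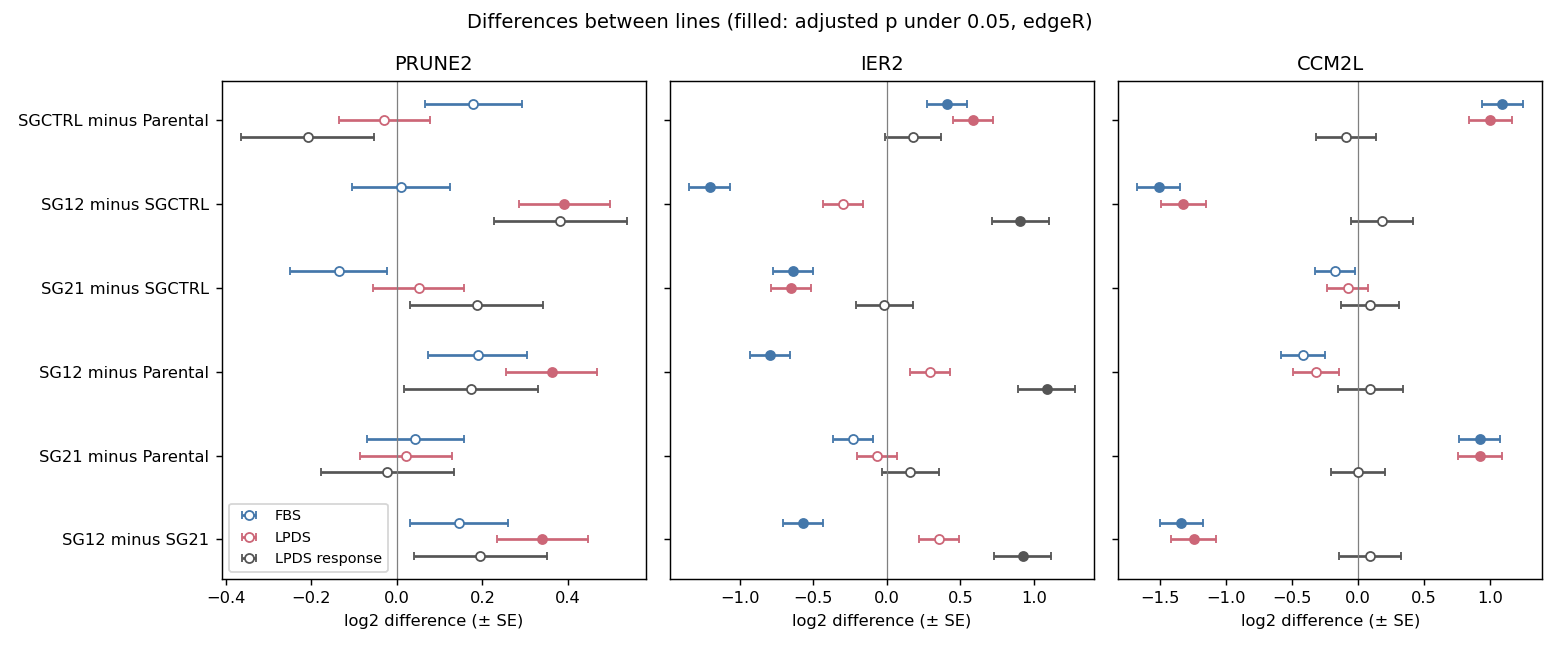
Log2 differences between lines with their standard errors, in FBS (blue), in LPDS (red) and in the LPDS response (grey), with filled points at an adjusted p under 0.05 by edgeR. IER2 has filled grey points for the 3 comparisons of SG12, at 0.91, 1.09 and 0.92, and CCM2L has filled blue and red points of like size.

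The entries whose log2 CPM was most like each gene were taken from 9543 tested entries over all 24 libraries, which share library, line and medium. Most like PRUNE2 were UQCC3 (r 0.97) and CSKMT (r 0.95), 2 entries over the gene LBHD1, and ENSG00000226334 (r 0.93). The LPDS log2 fold change of UQCC3 was 2.51 in the parental line, 2.42 in SGCTRL, 2.72 in SG12 and 2.30 in SG21. Least like PRUNE2 were PGM1, which reads ITGB3BP (r −0.87), ENSG00000280160 (r −0.87) and ARHGEF39 (r −0.86). After subtracting group means, r with UQCC3 was 0.16, so the likeness lies between the groups.

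Among the entries most like IER2 were GSS (r 0.96) and ENSG00000261604, which reads HMGCS1 (r 0.94). HMGCS1 is the synthase that makes HMG-CoA for the mevalonate pathway. The HMGCS1 mean was 485 ± 73.2 CPM in SG12 FBS and 2687 ± 180.2 CPM in SG12 LPDS (SD, n = 3), against 1967 ± 193 and 3864 ± 198 CPM in SGCTRL. In both genes SG12 FBS was the lowest group and SGCTRL LPDS the highest. Parental cells and SG21 were ordered otherwise. In FBS they were at 962 and 1228 CPM for HMGCS1 but at 1223 and 1045 CPM for IER2. In LPDS they were at 2302 and 2775 CPM for HMGCS1 but at 2123 and 2028 CPM for IER2. Least like IER2 were C19orf73, which reads LIN7B (r −0.86), RABGEF1 (r −0.86) and SRFBP1, which reads LOX (r −0.85). Within groups, r between IER2 and HMGCS1 was 0.16.

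**Figure D5:**
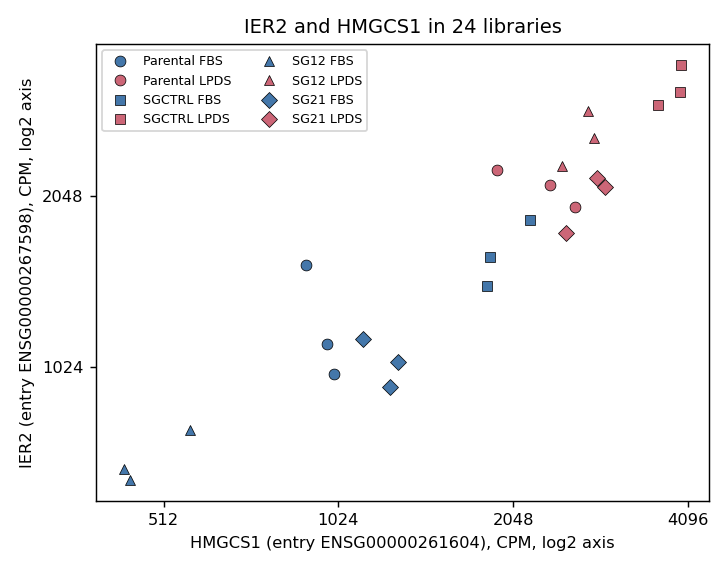
IER2 against HMGCS1, each read through its opposite-strand entry, in CPM on log2 axes, with 1 point for each of 24 libraries. The SG12 FBS libraries are the lowest in both and the SGCTRL LPDS libraries the highest in both.

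Most like CCM2L were ENSG00000266677, which reads ALKBH5 (r 0.90), ENSG00000233589, which reads DEPDC1 (r 0.89), and FBXO22, which reads NRG4 (r 0.88). Least like it were ENSG00000266495, which reads CABLES1 (r −0.82), EIF3G, which reads P2RY11 (r −0.82), and SIAH1, which reads LONP2 (r −0.82). Among the 3 genes themselves, r was 0.81 between PRUNE2 and IER2, −0.54 between PRUNE2 and CCM2L and −0.18 between IER2 and CCM2L. The 3 genes were chosen for their direction in LPDS, so the signs of these r over both media largely follow from the choice. Within groups r between PRUNE2 and IER2 was −0.32.

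Lists of related genes were read through opposite-strand entries above 6.06 CPM, leaving out the 3 genes themselves. Of 47 further immediate early genes 5 could be read, JUNB, EGR3, NR4A1, IER5L and CSRNP1. Of these 2 rose in LPDS in parental cells (2.2% of all entries rose), 2 in SGCTRL (1.32%), 3 in SG12 (11.5%) and 1 in SG21 (1.87%), and by edgeR none passed as lower. IER5L was at −0.54 (SE 0.21, edgeR adjusted p 0.0787) in SG12. NR4A1, an orphan nuclear receptor, rose by log2 0.75 (SE 0.13, edgeR adjusted p 0.00014) in parental cells, 0.65 (SE 0.13, adjusted p 0.00111) in SGCTRL and 1.34 (SE 0.13, adjusted p 2.44e-11) in SG12, and was at 0.31 (SE 0.13, adjusted p 0.194) in SG21. JUNB, a subunit of AP-1, rose in SGCTRL (0.74), SG12 (0.73) and SG21 (0.81). EGR3, a zinc finger factor, rose in parental cells (1.89) and SG12 (2.44). The list's median was 0.50, 0.65, 0.73 and 0.31 in the 4 lines, against −0.01, 0.00, 0.02 and 0.01 over all entries. The response of NR4A1 was larger in SG12 than in SGCTRL by 0.69 (SE 0.18, edgeR adjusted p 0.00774) and that of EGR3 by 1.72 (SE 0.49, edgeR adjusted p 0.017). JUNB differed by −0.0034 (SE 0.24, edgeR adjusted p 0.996), IER5L by −0.59 (SE 0.30, adjusted p 0.238) and CSRNP1 by 0.48 (SE 0.50, adjusted p 0.599). Of all entries 10.7% passed in this comparison.

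Of 18 further genes of the CCM complex and its partners, 4 could be read, MAPK7, STK24, STK25 and THBS1. In SG12 STK24, a kinase that binds the CCM3 protein, fell by 0.75 in LPDS (log2 −0.75, SE 0.10, edgeR adjusted p 2.38e-08), and its close relative STK25 rose by 0.57 (SE 0.17, edgeR adjusted p 0.0105). No member passed by edgeR in the other lines, where 0, 1 and 0 had an unadjusted p under 0.05 in parental cells, SGCTRL and SG21. In parental cells, SGCTRL, SG12 and SG21 the background for lower entries was 2.35%, 1.01%, 11% and 1.96%. For higher entries it was 2.2%, 1.32%, 11.5% and 1.87%. The list's median was 0.03, −0.08, 0.09 and −0.02 in the 4 lines, while CCM2L fell in each. Of 13 relatives of PRUNE2 and BCH-domain genes 2 could be read. BNIP2, which shares the BCH domain, rose in SGCTRL (0.49, SE 0.14, edgeR adjusted p 0.0424) and was at 0.27, −0.18 and −0.14 in parental cells, SG12 and SG21. ADARB1, an RNA-editing enzyme, did not pass in any line.

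Cholesterol synthesis served as the known response to LPDS. Of 20 genes 6 could be read, and those that rose numbered 4 for the parental line (2.2% of all entries rose), 4 for SGCTRL (1.32%), 5 for SG12 (11.5%) and 4 for SG21 (1.87%), with medians of 0.79, 0.79, 1.94 and 0.72. LSS, which closes the sterol ring, rose by 1.03, 0.77, 2.07 and 1.08, so that SG12 had the largest value, as for IER2. Of the cell type lists, 0 of 12 epithelial, 0 of 11 endothelial and 0 of 7 leukocyte genes could be read through an opposite-strand entry, so the labelled epithelial type was not checked, and neither were endothelial cells, in which CCM2L is best known. Of 9 fibroblast genes 2 could be read, THY1 and FAP, and neither passed in LPDS in any line.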

How the data were processed

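The authors deposited 1 table per library with raw counts of reads for each gene entry. Libraries came from a stranded Illumina kit for total RNA with ribosomal depletion, per the labels' protocols. The submitters' processing notes name bcl2fastq, STAR and hg38 without versions. The counting program and its strand setting are not given in the sources used here. Closing rows (on no gene, ambiguous and others) stayed out of library sizes.

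Entries were matched to GENCODE 29 (56736 of 61578), and the gene read through an entry is the one on the opposite strand with at least 50 shared exon bases and 80% of such overlap. Counts were fitted in R 4.3.3 with edgeR 4.0.16 (TMM, filterByExpr, robust quasi-likelihood test, a mean for each of 8 groups, all 24 libraries), which kept 12822 entries. SE is the absolute log2 change over the root of F. The fit was tested on simulated data. Lists were read through tested entries above 6.06 CPM, a level that 90% of 13071 protein-coding entries lacking an opposite exon did not exceed.

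The 3 members, the lists and the rules were chosen with earlier results of these data known. Named genes are the members, entries and neighbours at their loci, the 3 most and 3 least like entries per member (average log2 CPM of at least 2) and up to 4 genes per list by adjusted p; 2 of these genes are not reported here. Alternatives were DESeq2 1.42.0 and its size factors, no and a stricter count filter (1 CPM in 3 libraries), the compared groups alone, a replicate block, all uniquely aligned reads as library size, a term for the ambiguous-read split, the own-name share as a covariate and each library left out. Fitting edgeR without its robust step was added after seeing the data.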

Additional observations from a re-analysis of the deposited data

Results flagged for a closer look

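The LPDS response of IER2 differed between lines by a test of the difference itself, with a larger rise in SG12 than in SGCTRL by 0.91 on the log2 scale (edgeR adjusted p 0.00292), than in parental cells by 1.09 (edgeR adjusted p 0.000579) and than in SG21 by 0.92 (edgeR adjusted p 0.0021). These differences are built from the LPDS changes that the choice of members used. All 3 SG12 FBS libraries, at 647 to 793 CPM, were below all FBS libraries of the other lines. All 3 SG12 LPDS libraries lay above those of parental cells and SG21, though by edgeR neither difference passed (adjusted p 0.193 and 0.0714). The share of all entries separated between lines in this way was not counted, so nothing is read from it.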

How the results depend on the processing

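The 12 LPDS changes kept their direction in every alternative run but 1. With the own-name share as a covariate the log2 fold change of CCM2L in SG12 was 0.072 (SE 0.41). For the comparisons with SGCTRL, a term for the ambiguous-read split gave −0.96 for CCM2L in SG12 in LPDS, −0.34 for IER2 in SG21 in FBS and 0.33 for PRUNE2 in SG12 in LPDS, none of which passed. IER2 in SG12 in LPDS passed with no count filter (−0.30) and with the compared groups alone (−0.31), and was at 0.00036 with the split term. The larger IER2 response in SG12 did not pass with the own-name share as a covariate (0.80). The cause was not tested. Leaving out 1 library at a time, PRUNE2 in SG12 against SGCTRL in LPDS ranged from 0.30 to 0.48. With the replicate block, IER2 in SG12 against SG21 in LPDS passed (0.36, adjusted p 0.0499), and no other call changed. Without the block this comparison did not pass (0.36, edgeR adjusted p 0.0714). By edgeR it also passed with no count filter (0.41, adjusted p 0.000588) and with the compared groups alone (0.36, adjusted p 0.015). Without edgeR's robust step it passed at adjusted p 0.0353. Only 1 of 12 same-numbered FBS and LPDS pairs had a correlation of deviations over 0.1. With so few libraries per group this cannot exclude a shared day or culture, and the labels give only a number. With DESeq2's Wald test 1 line comparison lost its call, IER2 in SGCTRL against parental cells in FBS (0.36, adjusted p 0.0569). CCM2L in SG12 held 65 to 126 counts per library, which limits its precision.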
